A study of Danio rerio with 9 samples.

Results

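The genes described here drive and mark the making of neurons in zebrafish: the proneural gene neurog1, the neuronal differentiation genes neurod4 and neurod1, the zinc finger genes insm1a and insm1b, and the neuronal RNA-binding protein gene elavl3. They were chosen by name from a list of 8 genes, whose Ensembl identifiers were mapped to symbols without regard to case. Of the 8, 6 were measured, out of 29291 genes in the table, and the proneural genes ascl1a and ascl1b were not analysed here. All 6 passed the filter of at least 1 RPKM in 1 or more libraries, which 19868 genes passed. RPKM scales the reads of a gene by its length and by the depth of the library, so levels can be compared between genes.

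The study followed gene expression through zebrafish development by sequencing poly(A) RNA of whole embryos and larvae, unsorted, at 9 stages. All animals were of the AB strain, with no mutant and no treated group. Each stage was 1 library from a pool of about 2000 individuals. The stages were 64-cell at 2 hours post-fertilization (hpf), oblong-sphere at 3.6 to 4 hpf, 50%-epiboly at 5.25 hpf, 15-somite at 16.5 to 17.5 hpf, Prim-25 at 36 hpf, Long-pec at 48 hpf, Pec-fin at 60 hpf, Protruding-mouth at 72 hpf and the 1-week larva.

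Neurogenesis begins when proneural factors of the basic helix-loop-helix (bHLH) class accumulate in a neural progenitor. They act as dimers with E proteins on E-box motifs and switch on neuronal genes, among them later bHLH genes of the NeuroD family. They also raise Delta ligands, which activate Notch in neighbouring cells, and there Hes and Hey repressors (her genes in zebrafish) keep the proneural genes down. Id proteins bind E proteins and keep them from the proneural factors. In zebrafish the first neurons arise from the neural plate, and later waves build the brain, spinal cord, cranial ganglia and retina.

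With 1 library at each stage nothing could be tested between stages, and no p-value is given. Mapped reads, recovered from the RPKM values, lay between 123311411 (64-cell) and 205507592 (Protruding-mouth) in the 8 libraries whose values could be read as 1 run. The Pec-fin values could be read as means of 2 runs, of 171010360 and 59857652 mapped reads. These runs are inferred from the values, and the labels do not mention them. Exact 95% Poisson intervals are given for levels where whole reads could be recovered. They cover counting error only, leave out differences between pools, and are not given for Pec-fin. In whole animals a lower level may come from fewer cells of a type or from less RNA per cell, which cannot be told apart.

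neurog1 (ENSDARG00000056130), which commits progenitors to a neuronal fate, was highest earlier than neurod4, insm1a, insm1b and neurod1. Its levels from 64-cell to the 1-week larva were 1.26, 1.1, 1.82, 19.8, 34.6, 28.1, 24.4, 10.5 and 2.29 RPKM. The highest level was at Prim-25, where the 95% interval ran from 33.9 to 35.3 RPKM over 8595 reads. At 15-somite neurog1 was already at 57.3% of that level, and in the 1-week larva it was at 6.64% of it. It was also the one gene of the 6 with at least 1 RPKM before 15-somite. The 217 reads at 64-cell gave 1.26 RPKM with an interval of 1.1 to 1.44, which overlapped that of oblong-sphere. The 64-cell stage precedes broad transcription of the embryo's own genome. The 64-cell library also held exocrine pancreas markers, with a sum of 83.7 RPKM against 0.510 at oblong-sphere. Their bearing on the early neurog1 levels was not tested. neurog1 held 1.85% of the summed level of the 6 genes in the 1-week larva, against 97.0% at 64-cell. That sum was 124 RPKM in the larva and 1.30 RPKM at 64-cell, and the neurog1 level itself was higher in the larva.

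neurod4 (ENSDARG00000003469) encodes a bHLH factor of the NeuroD family that acts after the proneural genes in differentiating neurons. Its levels in stage order were 0.00412, 0.0188, 0.312, 12.1, 50.3, 89.1, 72.7, 51.9 and 15.11 RPKM. The Long-pec level, from 33347 reads with an interval of 88.1 to 90.0 RPKM, ranked 604 among all genes of that library. At 64-cell a single read was seen, and at oblong-sphere 7. neurod4 was above 50% of its highest level from Prim-25 to Protruding-mouth.

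insm1a and insm1b are the zebrafish copies of Insm1, a zinc finger repressor of neural progenitors, newborn neurons and endocrine cells. The gene name table calls both identifiers INSM1. The gene of 2424 bases (ENSDARG00000091756) is called insm1a here and that of 2196 bases (ENSDARG00000053301) insm1b, because the RefSeq genes of those names, of another assembly, are 2431 and 2199 bases long. insm1a stood at 0.00335, 0.0283, 0.328, 7.90, 38.1, 72.6, 64.0, 33.5 and 9.72 RPKM in stage order. insm1b stood at 0.00739, 0.0384, 0.985, 12.3, 34.8, 62.6, 33.0, 19.7 and 8.55 RPKM. Both were highest at Long-pec, with intervals of 71.9 to 73.4 RPKM for insm1a and 61.8 to 63.3 RPKM for insm1b. insm1b was at 52.7% of its Long-pec level by Pec-fin, where insm1a was at 88.2%.

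neurod1 (ENSDARG00000019566) encodes the NeuroD family factor of differentiating neurons, which is also used in photoreceptors, the inner ear and endocrine cells of the pancreas. It had the latest course of the 6, with levels of 0.0134, 0.0152, 0.105, 10.04, 16.6, 25.9, 29.8, 96.7 and 60.8 RPKM in stage order. The Protruding-mouth level, from 48148 reads with an interval of 95.9 to 97.6 RPKM, was the highest that any of the 6 genes reached in any library. At Pec-fin neurod1 was still at 30.8% of that level, and in the 1-week larva it remained at 62.9%. Its share of the summed level of the 6 genes was 49.0% in the 1-week larva, against 36.5% at Protruding-mouth.

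elavl3 (ENSDARG00000014420), also called HuC, encodes an RNA-binding protein that is a common marker of newly born and mature neurons. Its levels in stage order were 0.0110, 0.282, 0.595, 26.7, 55.0, 37.3, 48.9, 52.9 and 27.6 RPKM. All its values from Prim-25 to Protruding-mouth were at or above 67.8% of the highest, with the lowest of them at Long-pec, below both neighbouring stages. The Prim-25 interval of 54.4 to 55.6 RPKM lay above the Protruding-mouth interval of 52.4 to 53.4 RPKM, but these intervals hold no spread between pools. At 15-somite elavl3 was the most abundant of the 6 genes and held 30.1% of their summed level. The elavl3 value at 64-cell was not a whole number of reads over its length of 3402 bases, so it has no interval.

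**Figure D1:**
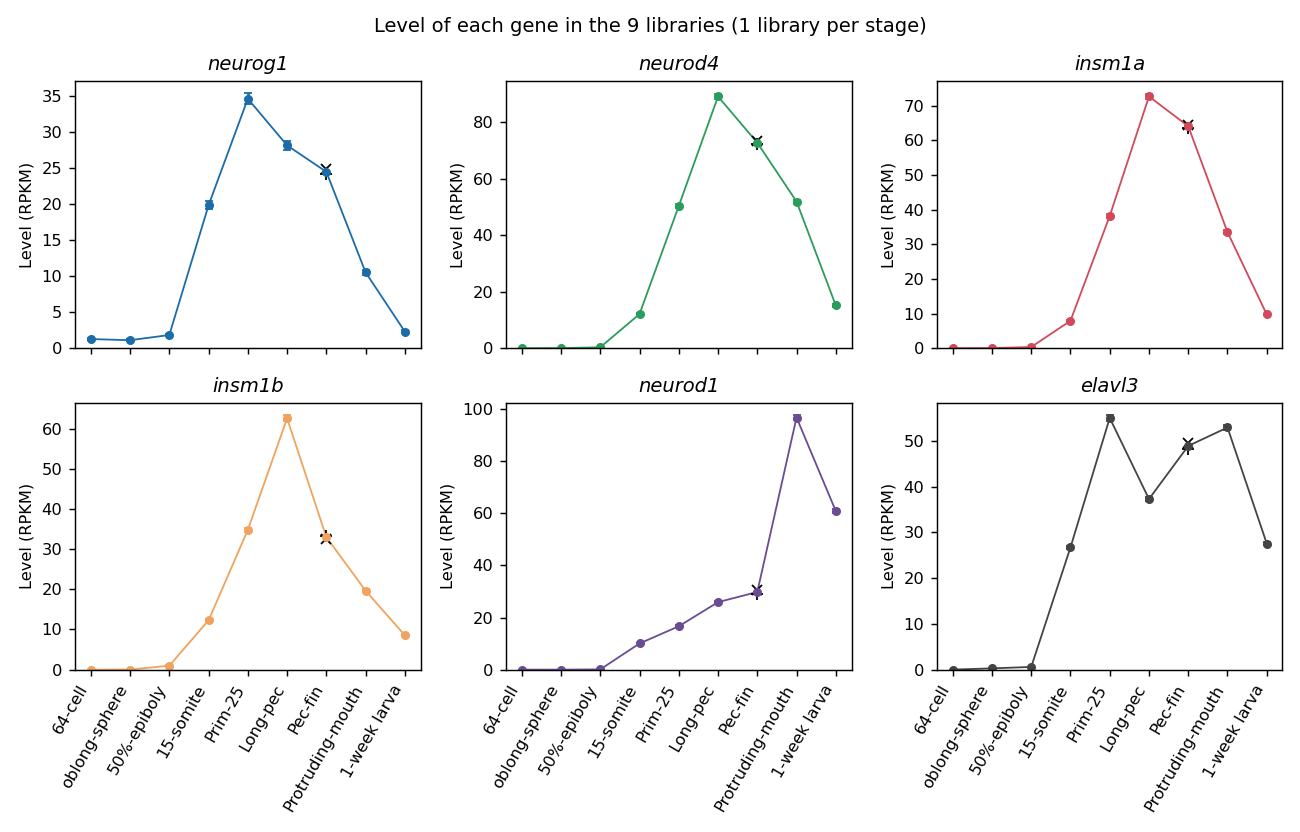
Level in RPKM (vertical axes) of each of the 6 genes in the 9 libraries (horizontal axes, in order of age). Bars are exact 95% Poisson intervals where reads could be recovered, and at Pec-fin the crosses and plus signs are the 2 runs inferred from the values. neurog1 and elavl3 are highest at Prim-25, neurod4, insm1a and insm1b at Long-pec, and neurod1 at Protruding-mouth.

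By the stage of the highest level, the order was neurog1 and elavl3 at Prim-25, then neurod4, insm1a and insm1b at Long-pec, then neurod1 at Protruding-mouth. The place of elavl3 is not settled, because its Protruding-mouth level was 96.2% of its Prim-25 level, with 1 library at each stage. All 6 genes had their highest level between Prim-25 and Protruding-mouth, as did 18.8% of the 19868 genes past the filter. When each gene's levels were ordered by size, the intervals of neighbours overlapped only between 64-cell and oblong-sphere, for neurog1, neurod1, neurod4, insm1a and insm1b. Overlap of intervals does not show equal levels, and for insm1a and insm1b the counting interval of the ratio between these stages lay above 1. Pec-fin could not be placed in this comparison, and elavl3 at 64-cell could not either. The inferred Pec-fin runs lay close together. For neurod1 they gave 30.7 and 28.9 RPKM, which is 6.03% apart, and the other 5 genes were 1.28% to 2.76% apart. The labels do not mention these runs, so whether they came from 1 library is not known.

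**Figure D2:**
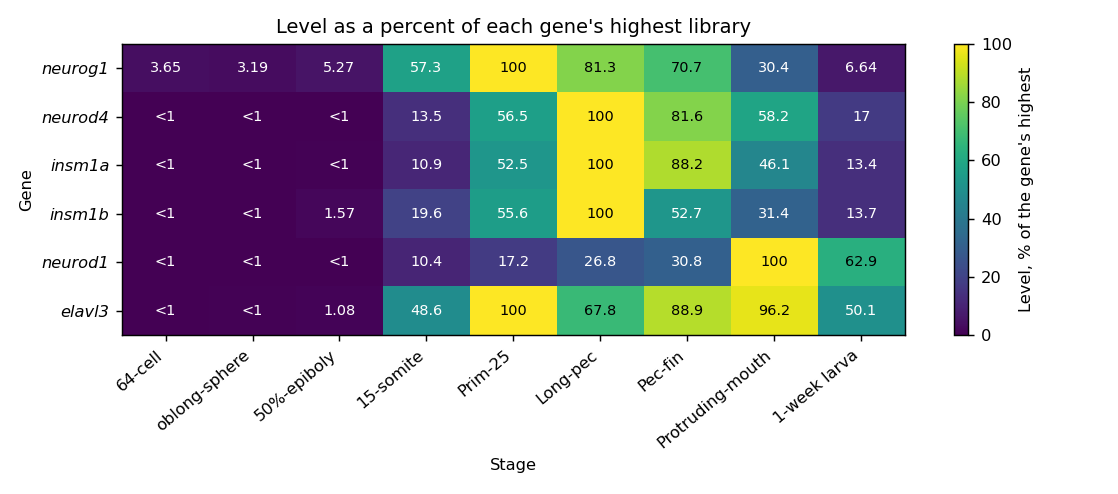
Level of each gene (rows) at each stage (columns) as a percent of its highest library, in colour and printed in each cell. At 15-somite neurog1 (57.3%) and elavl3 (48.6%) are well above the other 4 genes (10.4% to 19.6%), and in the 1-week larva neurod1 (62.9%) and elavl3 (50.1%) are above neurog1 (6.64%).

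Changes between neighbouring stages were measured as the difference in log2(RPKM + 1), later minus earlier, which understates the change of low genes. A difference of at least 1 (2-fold) was counted as higher or lower, beside the share of all genes past the filter that passed it. From 64-cell to oblong-sphere 0 of 6 genes were higher and 0 lower, where 3.1% of all genes were higher and 3.3% lower. At 50%-epiboly against oblong-sphere again 0 were higher and 0 lower, where 14.4% and 31.1% of all genes were. All genes but neurog1 were below 1 RPKM in these libraries, and between such levels a difference of 1 cannot be reached. Only neurog1 could have been counted at these steps, so the counts of 0 do not show unchanged levels. All 6 differences at this step were above 0, from 0.12 for neurod1 to 0.93 for insm1b, while the median of all genes was −0.09. On the RPKM scale without an added 1, insm1b was 25.6-fold higher (95% counting interval 15.6 to 45.3) at 0.985 RPKM, against 0.0384 RPKM at oblong-sphere. neurod4 was likewise 16.6-fold higher (7.82 to 42.2), and neurog1 was 1.65-fold higher (1.43 to 1.92).

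At 15-somite against 50%-epiboly all 6 genes passed the 2-fold threshold upward, where 16.4% of all genes were higher and 4.91% lower. The differences ran from 2.74 to 4.12, with a median of 3.10 against 0.18 for all genes. elavl3 reached 26.7 RPKM against 0.595, a difference of 4.12 that 0.277% of all genes exceeded. neurod1 reached 10.04 RPKM against 0.105, a difference of 3.32 and a ratio of 95.4 (72.1 to 129). neurog1, the one gene already above 1 RPKM, had the smallest ratio, 10.9 (9.92 to 12.0), with a difference of 2.88. All 6 also passed 4-fold, which 4.37% of all genes did. The ratios rest on low levels at 50%-epiboly, a library in which exocrine pancreas markers summed to 46.7 RPKM. The bearing of those markers on the ratios was not tested.

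From 15-somite to Prim-25 the genes separated. neurod4, elavl3, insm1a and insm1b were at least 2-fold higher at Prim-25, which makes 4 of 6 with 0 lower, where 6.23% of all genes were higher and 4.96% lower. insm1a had the largest difference, 2.14 (38.1 RPKM at Prim-25 against 7.90 at 15-somite), and neurod4 followed with 1.97. neurog1 and neurod1 were below the threshold, at 0.77 and 0.68. The elavl3 difference of 1.01 lay just above it.

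No gene of the 6 reached 2-fold at the step from Prim-25 to Long-pec or from Long-pec to Pec-fin, and few of all genes did. At Long-pec against Prim-25, 0 were higher and 0 lower, where 0.81% and 0.403% of all genes were. The differences were 0.91 for insm1a, 0.83 for insm1b, 0.81 for neurod4 and 0.61 for neurod1, and they were −0.29 for neurog1 and −0.55 for elavl3. Those of all but neurog1 lay outside the 5th to 95th percentiles of all genes, −0.50 to 0.59, so the counts of 0 do not show unchanged levels. At Pec-fin against Long-pec, 0 were higher and 0 lower, where 0.785% and 0.72% of all genes were. The differences there ran from −0.90 for insm1b to 0.38 for elavl3. Only that of insm1b lay outside the 5th to 95th percentiles, −0.56 to 0.49, and 1.01% of all genes had a lower one. Exocrine pancreas markers and oocyte markers were uneven across these libraries. The 13 exocrine markers summed to 21.9 RPKM at Prim-25, 80.9 at Long-pec and 6.80 at Pec-fin, and the 12 oocyte markers to 4.60, 14.0 and 2.79 RPKM at these stages. The part of these markers in the Long-pec maxima of neurod4, insm1a and insm1b was not tested. Earlier the exocrine sum was 83.7 RPKM at 64-cell, 0.510 at oblong-sphere and 46.7 at 50%-epiboly. It was higher at 15-somite than at any of these earlier stages. What this means for the low early levels of the 6 genes was not tested.

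Between Pec-fin and Protruding-mouth neurod1 and neurog1 parted. At Protruding-mouth neurod1 was 3.25-fold higher, with a difference of 1.67, and neurog1 had 10.5 RPKM against 24.4, a difference of −1.14. These were the 1 gene higher and 1 lower of 6, where 7.18% of all genes were higher and 2.1% lower. Scaling the libraries without the mitochondrially encoded genes brought the neurog1 difference to −0.88, below the threshold. Photoreceptor markers changed at the same step: 12 of 18 were at least 2-fold higher and 0 lower, and their sum was 806 RPKM at Protruding-mouth against 48.2 at Pec-fin. Of 15 pancreatic endocrine markers 4 were higher and 0 lower, with sums of 249 RPKM at Protruding-mouth and 187 at Pec-fin. No marker of either list was at 0 in either library, and the part of these cells in the neurod1 difference was not tested.

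By the 1-week larva the genes were lower than at Protruding-mouth. neurog1 (−1.80), neurod4 (−1.72), insm1a (−1.69) and insm1b (−1.11) were at least 2-fold lower, 4 of 6, where 6.86% of all genes were. elavl3 and neurod1 had differences of −0.92 and −0.66. Exocrine pancreas markers summed to 31746 RPKM in the 1-week larva, against 172 at Protruding-mouth. Their part in the lower levels was not tested. When the 100 most abundant genes were left out of the scaling, all 6 of the genes passed the threshold downward. Set against 15-somite, the larva had 1 gene higher (neurod1, difference 2.49) and 1 lower (neurog1, −2.66), where 30.1% of all genes were higher and 18.6% lower. The differences of elavl3, insm1a, neurod4 and insm1b lay between −0.48 and 0.30. Those of neurod4 (0.30), insm1a (0.27) and elavl3 (0.04) were below 0 under each of the 3 other scalings.

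**Figure D3:**
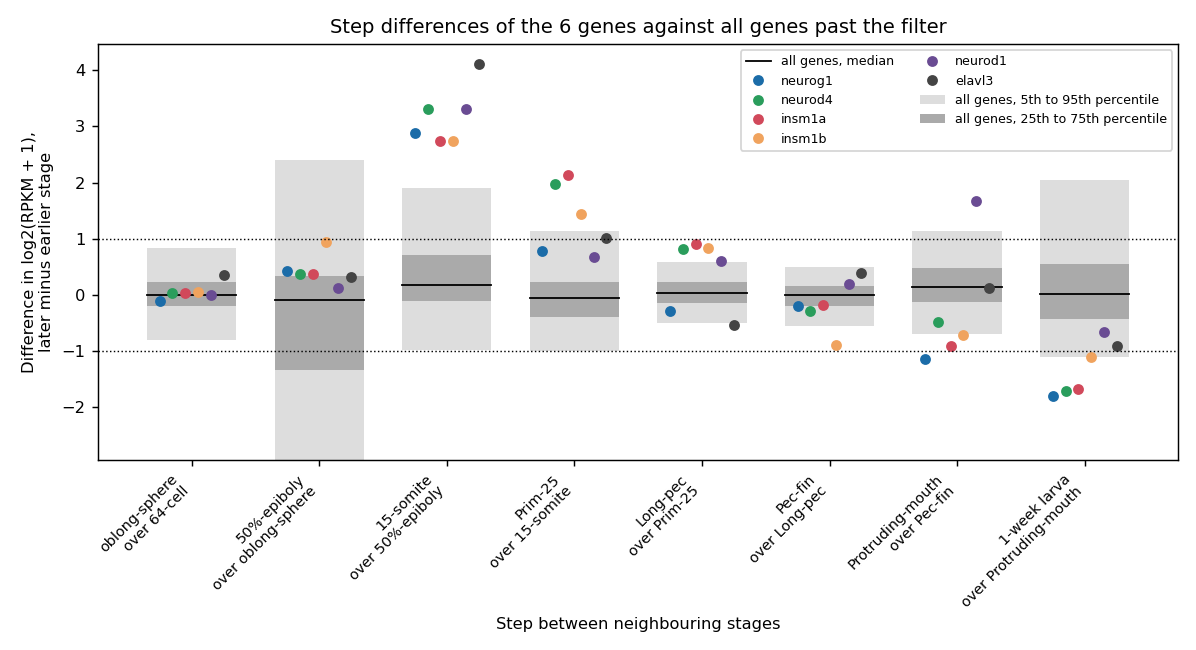
Difference in log2(RPKM + 1), later minus earlier stage (vertical axis), for each of the 8 neighbouring steps (horizontal axis). Points are the 6 genes, light and dark bars the 5th to 95th and 25th to 75th percentiles of all 19868 genes, lines their medians, and dotted lines 2-fold. All 6 points lie above the light bar at 15-somite over 50%-epiboly, and neurod1 stands alone above 1 at Protruding-mouth over Pec-fin.

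Ratios within a library do not depend on how libraries are scaled. neurod4 over neurog1, the later gene over the earlier, was 0.171 at 50%-epiboly, 0.609 at 15-somite, 1.45 at Prim-25, 3.17 at Long-pec, 2.97 at Pec-fin, 4.94 at Protruding-mouth and 6.58 in the 1-week larva. Each value but that of Pec-fin exceeded the one of the stage before, and the counting intervals of the other stages did not overlap. elavl3 over neurog1 was 12.0 in the 1-week larva (11.1 to 13), against 1.35 at 15-somite, with values of 1.33 to 2.00 between Prim-25 and Pec-fin.

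The NeuroD genes changed places. neurod1 over neurod4 was 0.832 at 15-somite, 0.331 at Prim-25, 0.291 at Long-pec, 0.410 at Pec-fin, 1.86 at Protruding-mouth and 4.03 in the 1-week larva. The insm1 copies also crossed. insm1a over insm1b was 0.333 at 50%-epiboly (0.275 to 0.402), 0.643 at 15-somite, 1.096 at Prim-25, 1.16 at Long-pec, 1.94 at Pec-fin, 1.70 at Protruding-mouth and 1.14 in the 1-week larva. insm1b was thus the more abundant copy at 50%-epiboly and 15-somite and insm1a from Prim-25 on, with counting intervals clear of 1 at each of these stages except Pec-fin, which has none. At 64-cell and oblong-sphere the intervals of the ratio held 1. These directions rest on the assignment by length. Whether reads of one copy were counted to the other is not given in the sources used here.

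**Figure D4:**
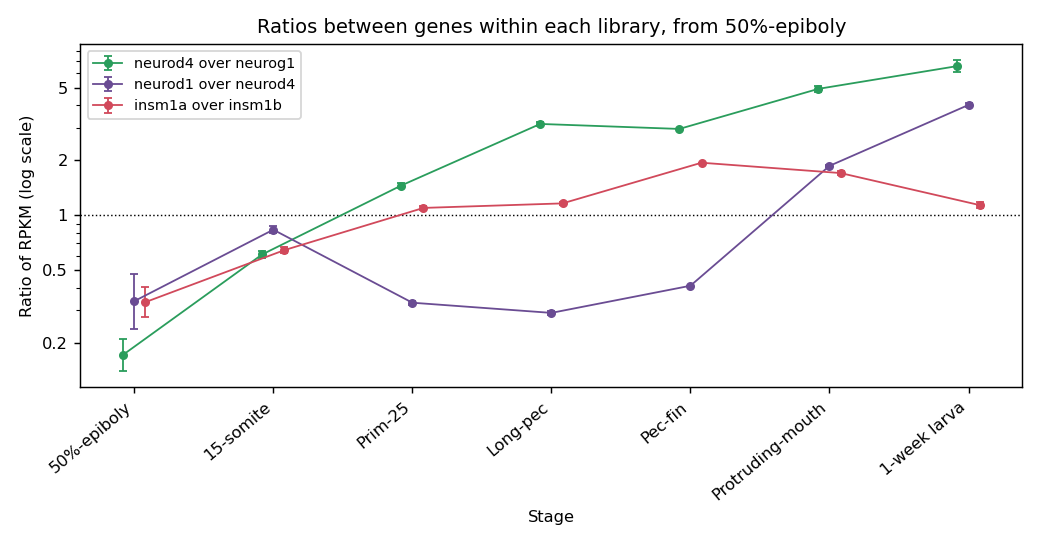
Ratio of RPKM between 2 genes of the same library (vertical axis, log scale) from 50%-epiboly to the 1-week larva (horizontal axis), with 95% counting intervals where available. neurod4 over neurog1 reaches 6.58 and neurod1 over neurod4 reaches 4.03 in the 1-week larva, and insm1a over insm1b crosses 1 between 15-somite and Prim-25.

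Over the 9 libraries neurod4 and insm1a had the most similar profiles of the 6 genes, with a Pearson r of log2(RPKM + 1) of 0.997, and 0.995 over the 6 libraries from 15-somite on. neurog1 and neurod1 were the least similar pair, with r of 0.630, and −0.648 from 15-somite on. These are descriptions over libraries that differ in age, with no test.

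The 5 genes most like each member were taken from 8539 genes with at least 10 RPKM in a library. Symbols in capitals are those of the gene name table. For neurog1 they were EBF2 (r = 0.993), DBX1 (0.988), HES6 (0.985), nes (0.984) and dlb (0.978). EBF2 is a transcription factor of newborn neurons, DBX1 patterns spinal progenitors, nes encodes the progenitor filament nestin, and dlb is a Delta ligand. EBF2 stood at 18.9 RPKM at 15-somite, 34.4 at Prim-25, 40.9 at Long-pec and 1.80 in the 1-week larva. For neurod4 they were DLX1 (0.996), HOXC4, tmsb, SCRT2 and CTHRC1 (0.995), of which DLX1 is a factor of forebrain interneurons. insm1a shared HOXC4 (0.994) and DLX1 with neurod4, and its others were CRABP1, si:dkeyp-110a12.4 and nhlh2 (0.991), a neuronal bHLH gene.

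For insm1b the nearest were pou3f1 (0.997), DHX32, si:dkeyp-110a12.4, HAO1 and cndp1 (0.990), and pou3f1 is a POU factor of the nervous system. For neurod1 they included GNB2 (0.996), fam49al, SULF2 and CADM4 (0.992). CADM4, a cell adhesion gene, stood at 10.4 RPKM at Pec-fin, 19.3 at Protruding-mouth and 16.8 in the 1-week larva. For elavl3 they were IGFBP2 (0.996), TGFBI, TET2, COL2A1 and zgc:113232 (0.995). COL2A1 encodes the collagen of cartilage and notochord. The likeness is over stages of whole animals, not over cells. With Spearman's rho none of these 5 was kept for neurog1, neurod1, elavl3 or insm1a, 1 was kept for insm1b and 2 for neurod4.

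Of 10 Notch ligand, receptor and pathway genes past the filter, 4 were at least 2-fold higher and 0 lower at 15-somite against 50%-epiboly, and their median difference was 0.85 against 0.18 for all genes. At that step 16.4% of all genes were higher and 4.91% lower. Among the ligands dlb reached 21.3 RPKM at 15-somite against 2.103 at 50%-epiboly, jag2b 9.59 against 1.48 and jag1b 1.68 against 0.172. The receptor NOTCH1 reached 5.24 RPKM against 0.313. dlb then stood at 53.8 RPKM at Prim-25, 65.9 at Long-pec, 56.5 at Pec-fin, 14.6 at Protruding-mouth and 3.38 in the 1-week larva. The ligand dlc stood at 25.5 RPKM at 50%-epiboly, where neurog1 stood at 1.82, and at 21.1 RPKM at 15-somite. Which tissue held the RNA of these Notch genes cannot be told from whole embryos. NOTCH3, at 18.1 RPKM at 50%-epiboly, 28.3 at 15-somite and 56.5 at Prim-25, was highest at the same stage as neurog1.

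Of 14 Notch effector genes 5 were higher and 1 lower at 15-somite, where 16.4% and 4.91% of all genes were. The median difference was 0.58. her2 reached 30.5 RPKM against 3.60 at 50%-epiboly, HEY1 17.4 against 1.71, her12 22.4 against 10.01, her15.1 4.72 against 1.43 and her4.1 2.62 against 0.443. her4.1, her12 and her15.1 belong to tandem families whose copies can share reads. her11 was the lower one, at 4.22 RPKM against 10.4. The tissue that held the RNA of these effector genes, higher or lower, cannot be told from whole embryos. The counts for this list moved with the pseudocount and with the scaling, between 3 and 8 higher.

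Among 9 genes for E proteins, Id proteins and Hes6, 3 were higher and 1 lower at 15-somite, where 16.4% and 4.91% of all genes were. The median difference was −0.30. The E protein gene TCF12 reached 11.6 RPKM at 15-somite against 1.40 at 50%-epiboly, and the Id gene id2b 5.49 against 0.689. The Id genes ID1 and ID3 were the most abundant of the list, at 221 and 83.9 RPKM at 15-somite against 273 and 142 at 50%-epiboly. HES6, known in the mouse and in Xenopus to promote neuronal differentiation, has a pair of identifiers that went opposite ways at this step. The HES6 gene that tracked neurog1 (ENSDARG00000007097) had 6.99 RPKM against 0.975, and the other (ENSDARG00000019335) 24.97 against 84.7.

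More of the other neural bHLH genes passed 2-fold at Prim-25 than at 15-somite. At 15-somite against 50%-epiboly 5 of 15 were higher and 0 lower (median difference 0.29), and at Prim-25 against 15-somite 8 of 15 were higher and 0 lower (median 1.02). The shares of all genes were 16.4% higher and 4.91% lower at 15-somite, and 6.23% and 4.96% at Prim-25. nhlh2 stood at 5.94 RPKM at 15-somite, 45.6 at Prim-25 and 48.1 at Long-pec. olig4 was already at 19.6 RPKM at 50%-epiboly, and at 23.3 at 15-somite and 28.7 at Long-pec.

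By the median, neural progenitor genes were nearer their highest level at 50%-epiboly than the 6 genes. At 50%-epiboly the median of the 6 genes was at 0.767% of the highest level, while the median progenitor gene was at 31.6%. The list was mixed at that stage: GFAP was at 0.577 RPKM (highest 92.3) and nes at 0.881 (highest 14.9). HMGB3 (ENSDARG00000056725) was at 124 RPKM (highest 388), and sox19b was at 63.8, below its earlier highest of 325 at oblong-sphere. Of the 21 progenitor genes 1 was highest at 64-cell, 1 at oblong-sphere and 5 at 50%-epiboly. For a gene past its highest level, the share does not mark a rise. At 15-somite 9 of 21 progenitor genes were higher and 2 lower than at 50%-epiboly, where 16.4% and 4.91% of all genes were. The median difference was 0.45. The HMGB3 gene ENSDARG00000056725, for a chromatin protein, was at 169 RPKM at 15-somite against 124 at 50%-epiboly, while the other HMGB3 identifier (ENSDARG00000006408) was at 37.7 against 75.1. sox19b, a SoxB1 gene with maternal RNA, was at 73.1 RPKM at 15-somite against 63.8 at 50%-epiboly. The FABP7 gene ENSDARG00000007697, of radial glia, was at 13.6 RPKM at 15-somite, 275 at Prim-25, 705 at Pec-fin and 747 at Protruding-mouth. The other FABP7 identifier (ENSDARG00000034650) was at 1.73, 6.42, 15.3 and 6.80 RPKM at these stages. In the 1-week larva against Protruding-mouth 8 of the 21 were lower, with a median of −0.92, where 6.86% of all genes were lower.

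Of 13 SoxC and cell cycle exit genes 5 were higher and 1 lower at 15-somite against 50%-epiboly, where 16.4% and 4.91% of all genes were. The median difference was 0.82. BTG2, the most abundant of the list, had 181 RPKM against 103, a difference below 2-fold. It stood at 271 RPKM at oblong-sphere and was highest in the 1-week larva with 330 RPKM. SOX4, a SoxC factor of differentiating neurons, had 29.6 RPKM against 2.76 and was highest at Protruding-mouth with 140 RPKM. SOX11 (ENSDARG00000095743) had 46.9 RPKM against 40.3 and was highest at Long-pec with 124 RPKM, as neurod4, insm1a and insm1b were. The other SOX11 identifier (ENSDARG00000077811) had 34.6 RPKM against 18.5, a difference of 0.87, and was also highest at Long-pec, with 68.6 RPKM. Of 9 genes of the neuronal repressor and splicing list 1 was higher and 2 lower at this step, beside the same shares of all genes. PTBP1 (ENSDARG00000031907), a splicing repressor that is lowered as neurons form in the mouse, had 65.9 RPKM against 157, while the other PTBP1 identifier (ENSDARG00000019362) had 48.4 against 43.9. RCOR1, the CoREST corepressor gene, had 20.0 RPKM against 24.6.

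Early neuron genes, which encode cytoskeletal proteins, adhesion molecules and transcription factors of young neurons, were at a like share of their highest level as the 6 genes at 15-somite (a median of 16.6% for the 6 genes and 15.9% for the list). At 15-somite against 50%-epiboly 21 of 35 were higher and 1 lower (median difference 1.17), and at Prim-25 against 15-somite 15 were higher and 1 lower (median 0.69). The shares of all genes were 16.4% higher and 4.91% lower at 15-somite, and 6.23% and 4.96% at Prim-25. The tubulin gene tubb5 had 76.7 RPKM at 15-somite against 18.4 at 50%-epiboly, and it was highest at Long-pec with 220 RPKM. The most abundant of the list was the STMN1 gene ENSDARG00000004169, for the microtubule regulator stathmin, with 115 RPKM at 15-somite against 140.5 at 50%-epiboly. It was highest at Prim-25 with 304 RPKM and stood at 50.6 RPKM in the 1-week larva. The other STMN1 identifier (ENSDARG00000033655) had 18.9 RPKM at 15-somite against 2.64 at 50%-epiboly and was highest in the 1-week larva with 264 RPKM. In the 1-week larva against Protruding-mouth 11 of the 35 were lower, with a median of −0.55, where 6.86% of all genes were lower.

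Synaptic and mature neuron genes were later still. At 15-somite against 50%-epiboly 6 of 23 were higher and 0 lower, where 16.4% and 4.91% of all genes were. The median difference of 0.20 was close to the 0.18 of all genes. At Prim-25 against 15-somite 16 were higher and 0 lower (median 1.42), and at Protruding-mouth against Pec-fin again 16 were higher and 0 lower (median 1.37). The shares of all genes were 6.23% higher and 4.96% lower at Prim-25, and 7.18% and 2.1% at Protruding-mouth. SNAP25 (ENSDARG00000020609), for a protein that acts in synaptic vesicle fusion, had 86.1 RPKM at Protruding-mouth against 38.6 at Pec-fin. The other SNAP25 identifier (ENSDARG00000058117) had 69.2 against 12.2. sypb, for the vesicle protein synaptophysin, had 61.8 RPKM against 11.1. In the 1-week larva the median of the 6 genes was at 15.3% of the highest level, that of the early neuron genes at 56.4% and that of the mature neuron genes at 90.5%.

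**Figure D5:**
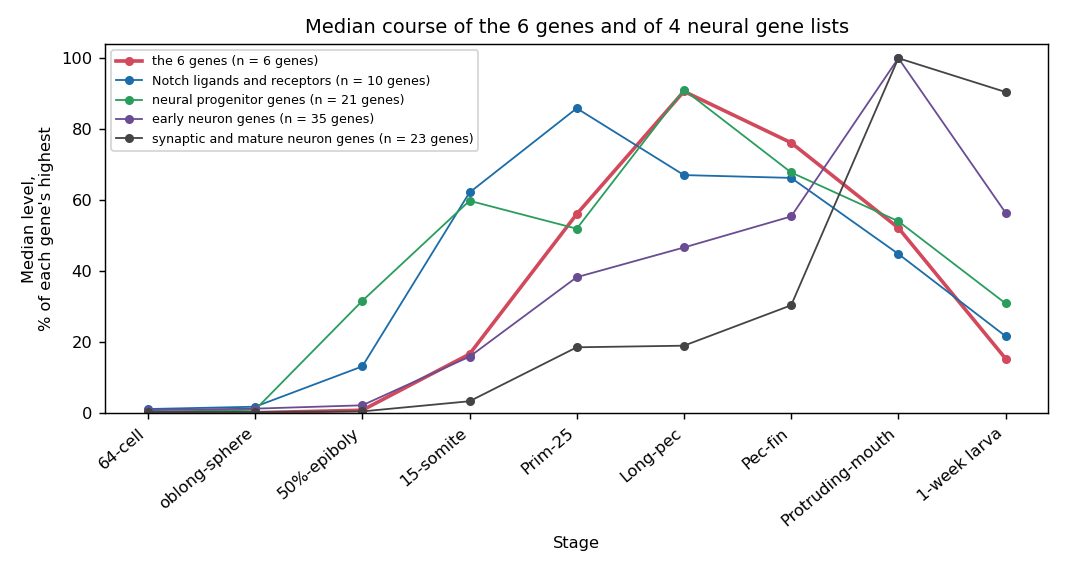
Median level of each list, as a percent of each gene's own highest library (vertical axis), at the 9 stages (horizontal axis). The median of the 6 genes is highest at Long-pec (90.6%), that of progenitor genes at Long-pec (91.1%), that of Notch ligands and receptors at Prim-25 (85.9%), and those of early and mature neuron genes at Protruding-mouth (100%).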

How the data were processed

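The values are RPKM as deposited by the authors, 1 for each Ensembl gene and stage, on build Zv9 per the submitters' processing notes. Per the labels' protocols, poly(A) RNA was fragmented with RNase III and sequenced on SOLiD. The aligner, the way reads were counted, any use of strand and the annotation release were not stated in these sources.

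Reads, gene lengths and mapped reads were recovered from the RPKM values. In 15692 of 19868 genes (79.0%) the values of 8 libraries were whole reads over 1 length (relative tolerance 1e-09). The code was tested on simulated data. Symbols matched 19580 identifiers. List symbols were matched without regard to case and, where absent, without the final paralog letter. DLD was left out of the Notch list because that symbol also names an enzyme. The 6 genes, the lists and the rules were chosen with earlier results of these data known. Other genes named were the 5 most correlated with each, the 3 most abundant of a list, and Notch, E protein, Id and Hes6 genes at 2-fold at 15-somite, of which 1 gene is not reported here. ELAVL2, ELAVL4, NEUROD2, neurog3 and the second identifiers of NEUROD6, HMGB3, FABP7 and SOX11 were chosen after their values were seen. Differences used a pseudocount of 1. Alternatives were a pseudocount of 0.1, no filter, 3 other scalings, each Pec-fin run alone, a 4-fold threshold, Spearman's rho and leaving out Long-pec. Python 3.11.15, numpy 2.4.6, pandas 2.3.3 and scipy 1.17.1 were used.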

Additional observations from a re-analysis of the deposited data

How the results depend on the processing

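No paired analysis was possible because each stage has 1 library. The stage of the highest level stayed the same for all 6 genes under the 3 other scalings, and all 6 stayed at least 2-fold higher at 15-somite against 50%-epiboly under every alternative run, the 4-fold threshold included. Median-of-ratios scaling shifted that step by −0.69 on the log2 scale and the step before it by 0.65.

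Counts of the 6 genes moved as follows. With a pseudocount of 0.1, which understates low genes less, 1 was higher at oblong-sphere and 3 at 50%-epiboly (0 as reported). Median-of-ratios scaling gave 1 higher at 50%-epiboly and 2 lower at Protruding-mouth (1 as reported), and scaling without the 13 mitochondrially encoded genes gave 0 lower there. At 4-fold, 1 was higher at Prim-25 (4 as reported), 0 higher and 0 lower at Protruding-mouth, and 0 lower in the 1-week larva (4 as reported). That last count was 5 or 6 under the other scalings. Of the 5 nearest genes, Spearman's rho kept 0 for neurog1, neurod1, elavl3 and insm1a, 1 for insm1b and 2 for neurod4, and leaving out Long-pec kept 3 for insm1a. The cause was not tested.

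For lists at 15-somite, a pseudocount of 0.1 gave 8 Notch effectors higher and 2 lower, 1 other bHLH gene and 2 early neuron genes lower, and 11 mature neuron genes higher. Median-of-ratios scaling gave 3 Notch effectors higher and 2 lower, and 3 E protein, Id and Hes6 genes, 1 other bHLH gene, 4 progenitor genes and 3 early neuron genes lower. Exact symbols, chosen after seeing the data and matching fewer genes, gave 4 progenitor genes higher and 1 lower and 11 early neuron genes higher at 15-somite. They gave 9 mature neuron genes higher at Prim-25 and 10 at Protruding-mouth, and 6 early neuron genes lower in the 1-week larva. Median-of-ratios scaling gave 2 endocrine genes higher at Protruding-mouth and 1 mature neuron gene lower in the 1-week larva. Keeping DLD, also chosen after seeing the data, gave 5 Notch genes higher at 15-somite (4 as reported). At 64-cell and oblong-sphere neurod1, neurod4, insm1a and insm1b rest on 1 to 16 reads, so their levels there are imprecise. The ratio of oblong-sphere over 64-cell was 8.46 for insm1a (95% counting interval 1.27 to 359) and 5.20 for insm1b (1.22 to 46.7). For neurod1 (0.289 to 5.30) and neurod4 (0.585 to 205) the interval held 1, so no order of these stages can be read. These intervals hold no spread between pools.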

Other observations

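NEUROD6 and ELAVL2, relatives of the 6 genes, had RNA in the libraries of the earliest embryos, while the relatives ELAVL4, NEUROD2 and neurog3 were low there. ELAVL4 was at 0.0684 RPKM at 64-cell and 0.0567 at oblong-sphere, NEUROD2 at 0.126 and 0.0102, and neurog3 at 0.00394 and 0.00257. Exocrine pancreas markers summed to 83.7 RPKM at 64-cell and 0.510 at oblong-sphere, and their bearing on these levels was not tested. NEUROD6 (ENSDARG00000020794), a NeuroD family gene of differentiated neurons, stood at 8.11 RPKM at 64-cell, 12.6 at oblong-sphere, 0.140 at 50%-epiboly, 0.263 at 15-somite and 5.26 at Prim-25, and was highest at Protruding-mouth with 28.7 RPKM. The other NEUROD6 identifier (ENSDARG00000040008) stood at 2.96 RPKM at 64-cell, 2.57 at oblong-sphere and 0.0689 at 50%-epiboly, and was highest at Protruding-mouth with 3.64 RPKM. ELAVL2, of the same family of RNA-binding protein genes as elavl3, stood at 37.9 RPKM at 64-cell, 31.6 at oblong-sphere, 6.49 at 50%-epiboly, 3.07 at 15-somite and 0.285 at Prim-25. ELAVL2 thus ran opposite to elavl3, which had 55.0 RPKM at Prim-25 against 0.0110 at 64-cell.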
